A study of Homo sapiens with 16 samples.

Results

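The comparison described here is the addition of recombinant GDF11 (growth differentiation factor 11) to senescent mesenchymal stem cells (MSCs). Its members were chosen by their sample titles: the 4 libraries of MmC+/GDF11+ and the 4 libraries of MmC+/GDF11-, which are 8 of the 16 libraries of the series. All cells were ASC52telo, an adipose-derived human MSC line kept dividing by telomerase, labelled wild type. Both groups had been made senescent with mitomycin C (MmC), a DNA alkylating agent, at 1.5 µg/mL for 18 h. For the next 10 days MmC+/GDF11+ cells were kept with 10 ng/mL GDF11 and MmC+/GDF11- cells without it. The other 8 libraries are "young" MSCs that never saw MmC, without (MmC-/GDF11-) or with (MmC-/GDF11+) GDF11. The 4 libraries of a group are described as biological replicates, all from 1 cell line, and every library carries the same sequencing run label. The paper lists batch effects from technical issues among its limitations, without saying which libraries they touched. In such bulk RNA, fewer cells that express a gene and less RNA of it per cell cannot be told apart.

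GDF11 is a secreted ligand of the TGF-β superfamily and a close relative of myostatin. It is made as a precursor, cut by furin-like and BMP1-like proteases, and held back by antagonists such as follistatin. The mature ligand binds the type II receptors ACVR2A and ACVR2B, which activate the type I receptors ACVR1B, TGFBR1 and ACVR1C, and these phosphorylate SMAD2 and SMAD3. With SMAD4 they enter the nucleus and switch on genes such as SMAD7. Senescent MSCs stop dividing under p53 and p21 and secrete cytokines, chemokines and proteases known as the senescence-associated secretory phenotype (SASP).

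No gene passed the test for GDF11 in senescent MSCs. Of 19103 genes tested with edgeR's quasi-likelihood test, 0 (0%) had an adjusted p under 0.05, and the lowest adjusted p was 0.999999. The threshold of 0.05 on the unadjusted p was met by 96 genes, 0.503% of those tested, 43 higher and 53 lower with GDF11. Uniform p-values would give 955.15 at that threshold. This fit leaves out the replicate number, which held most of the variation (below), so its p-values cannot be taken as uniform. The 96 therefore cannot be judged against 955.15. DESeq2 and limma-voom, also without the replicate number, called no gene either (0 each). Their unadjusted p was under 0.05 for 62 and 94 genes. The 4 GDF11 libraries lay wholly outside the range of the 4 others in 96 genes (0.503%), 40 higher and 56 lower.

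The libraries differed far more by replicate number than by GDF11. In a principal component analysis of the 8 libraries, component 1 held 56.6% of the variance. It set both replicate 1 libraries, at -64.4 and -68.2, apart from the other 6, which lay between 16.6 and 26.2. For a gene, the median share of the sum of squares was 84.9% for replicate number and 1.69% for GDF11, with 10.5% remaining. GDF11 holds 1 of the 7 degrees of freedom, or 14.3%, and replicate number and the remainder hold 3 each. The 14.3% is no yardstick for a median share where replicate number holds most of the variation. Its share exceeded that of replicate number in 637 genes (3.33%). When pair 1 was left out, the median share of GDF11 was 5.41%, and without pair 4 it was 3.35%, both with fewer degrees of freedom in all. Total counts ran from 83647223 to 107776837 in MmC+/GDF11- and from 79548222 to 144204979 in MmC+/GDF11+. The share of counts on mitochondrial genes was 3.97% ± 0.398 (SD, n = 4) without and 4.29% ± 0.443 (SD, n = 4) with GDF11, higher in 4 of 4 pairs. The exact permutation p was 0.286 unpaired and 0.125 paired, the smallest that 4 pairs can give. The mean difference was 0.319 percentage points, and 0.113 without pair 2.

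**Figure D1:**
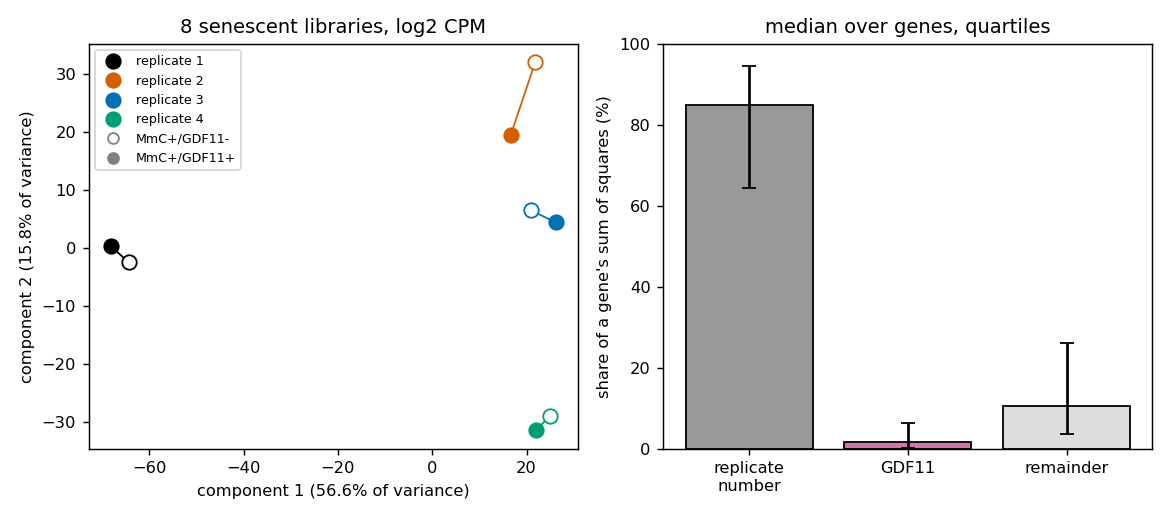
Left, the 8 senescent libraries on the first 2 principal components of log2 CPM, coloured by replicate number, with lines joining libraries of the same number. CPM here and throughout are counts scaled to the library total after adjustment by the TMM factor. Right, median share of a gene's sum of squares by replicate number, GDF11 and remainder, with quartiles over 19103 genes; the pairs sit together, pair 1 is far from the rest, and the median share of GDF11 is 1.69%.

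Because same-numbered libraries deviated together, the 8 libraries were also fitted with the replicate number as a block. This paired fit had a median standard error of 0.0507 on the log2 scale, against 0.138 without the block, taken over the 13184 genes that averaged 1 CPM or more. It again gave 0 genes at an adjusted p under 0.05 (lowest 0.999, edgeR). An unadjusted p under 0.05 was found for 524 genes (2.74%), of which 311 were higher and 213 lower (1.12% of those tested). All 4 pairs were lower with GDF11 in 1109 genes (5.81%) and higher in 991 (5.19%). The median paired log2 fold change of all genes was 0.00. The 95% interval lay within a 1.25-fold change in either direction for 12058 of the 13184 genes (91.5%), and within a 1.5-fold change for 13075 (99.2%). Without the block those shares were 46.6% and 85.7%.

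Of 4 genes tested in the list of activin receptor ligands, 0 had an unadjusted p under 0.05 in either fit (edgeR). GDF11's own transcript (ENSG00000135414.10, hg38 chromosome 12, 55743122 to 55757264) was at 27.3, 23.3, 20.7 and 22.7 CPM in the MmC+/GDF11- libraries, replicates 1 to 4, and at 26.6, 25.1, 22.5 and 21.5 CPM in the MmC+/GDF11+ libraries. The ranges overlapped almost wholly, and the paired log2 fold change was 0.03 (95% interval -0.07 to 0.14). The added protein would not appear in these reads. INHBA, which encodes the activin A subunit, was at 258, 525, 434 and 312 CPM without and 270.5, 374, 483 and 277 CPM with GDF11. Replicates 2 and 3 were high in both groups, and the paired log2 fold change was -0.10 (-0.41 to 0.20). The INHBA level in the 8 young libraries was 47.3 to 73.6 CPM. INHBB, the activin B subunit, averaged 4.55 ± 0.547 and 4.58 ± 0.975 CPM (SD, n = 4). INHA, the inhibin α subunit, averaged 0.192 ± 0.0149 and 0.150 ± 0.0524 CPM (SD, n = 4), with a paired log2 fold change of -0.38. Myostatin (MSTN), NODAL and GDF3 had at most 6, 4 and 2 counts in any senescent library and were not tested.

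All 6 receptors tested were present, and none had an unadjusted p under 0.05 in either fit. Levels were also taken per length of a gene's merged exons, over all its annotated transcripts, and scaled to the same total in each library (TPM). By this measure TGFBR3, the co-receptor betaglycan, stood at 69.4 TPM (mean of 8), TGFBR1 at 40.4 and ACVR1B at 28.2. The type II receptors were much lower, ACVR2A at 2.39 TPM and ACVR2B at 0.623 TPM, and ACVR1C was at 1.17 TPM. ACVR1B was at 47.2, 41.8, 40.5 and 45.1 CPM without and 44.9, 39.3, 38.6 and 47.3 CPM with GDF11. The values interleaved, and the paired log2 fold change was -0.04 (-0.13 to 0.06). The widest receptor intervals were those of ACVR2B, at -0.12 (-0.31 to 0.08), and ACVR1C, at 0.09 (-0.10 to 0.28). For all 6 the interval lay within a 1.25-fold change.

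Proteases and antagonists were also at like levels in both groups. Of 11 tested, 6 were higher and 5 lower with GDF11, with a median log2 fold change of 0.01, and all 7 above 1 CPM had intervals within a 1.25-fold change. FURIN, which cuts the GDF11 precursor, averaged 239 ± 20.7 and 229 ± 7.62 CPM (SD, n = 4). BMP1, which frees the ligand from its propeptide, averaged 151 ± 39 and 152 ± 43.2 CPM (SD, n = 4). PCSK5, a convertase known to cut GDF11, averaged 1.66 ± 0.545 and 1.61 ± 0.414 CPM (SD, n = 4). Follistatin (FST), which traps activins and GDF11, is the clearest case of the pair structure. It was at 122, 262, 258 and 378 CPM without and 123, 246, 282 and 387 CPM with GDF11, so that 99.5% of its sum of squares lay between replicate numbers. Its paired log2 fold change was 0.03 (-0.06 to 0.12), and the young libraries held 59.6 to 96.4 CPM. FSTL3, a relative of follistatin, was at -0.04 (-0.27 to 0.19). LTBP3, a latency protein, was at -0.05 (-0.21 to 0.11). DCN, the matrix proteoglycan decorin, was at 0.03 (-0.05 to 0.12). The low genes PCSK6, TLL1, TLL2 and WFIKKN1 each averaged under 1 CPM, with paired log2 fold changes of 0.34, -0.19, 0.18 and 0.56. WFIKKN1, a GDF11-binding inhibitor, had the widest gap of these relative to its error (-0.06 to 1.18). WFIKKN2 was too low to test.

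The SMAD relay was at close to the same level in both groups. SMAD3 was at 121, 119, 113 and 141 CPM without and 119, 121, 115 and 143 CPM with GDF11, a paired log2 fold change of 0.01 (-0.07 to 0.09). Replicate 4 was highest in both groups and no pair differed by more than a few CPM. SMAD2 averaged 72 ± 2.88 and 72.6 ± 1.12 CPM, and SMAD4 38.5 ± 0.898 and 38.1 ± 1.16 CPM (SD, n = 4). The corepressors SKI and SKIL were at paired log2 fold changes of -0.09 (-0.22 to 0.04) and 0.00 (-0.14 to 0.13). The transcriptional repressors TGIF1 and TGIF2 were at 0.01 and 0.04. The ubiquitin ligases SMURF1 and SMURF2, which degrade SMADs and receptors, were at -0.07 (-0.16 to 0.02) and -0.01 (-0.10 to 0.09). ZFYVE9, which brings SMADs to the receptor, was lower in 4 of 4 pairs at -0.03 (-0.12 to 0.06). PPM1A, a SMAD phosphatase, was higher in 4 of 4 at 0.05 (-0.04 to 0.13). TRIM33, which binds SMAD4 and SMAD2/3, was at 0.05 (-0.03 to 0.14). All 12 intervals lay within a 1.25-fold change, and none had an unadjusted p under 0.05 in either fit.

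**Figure D2:**
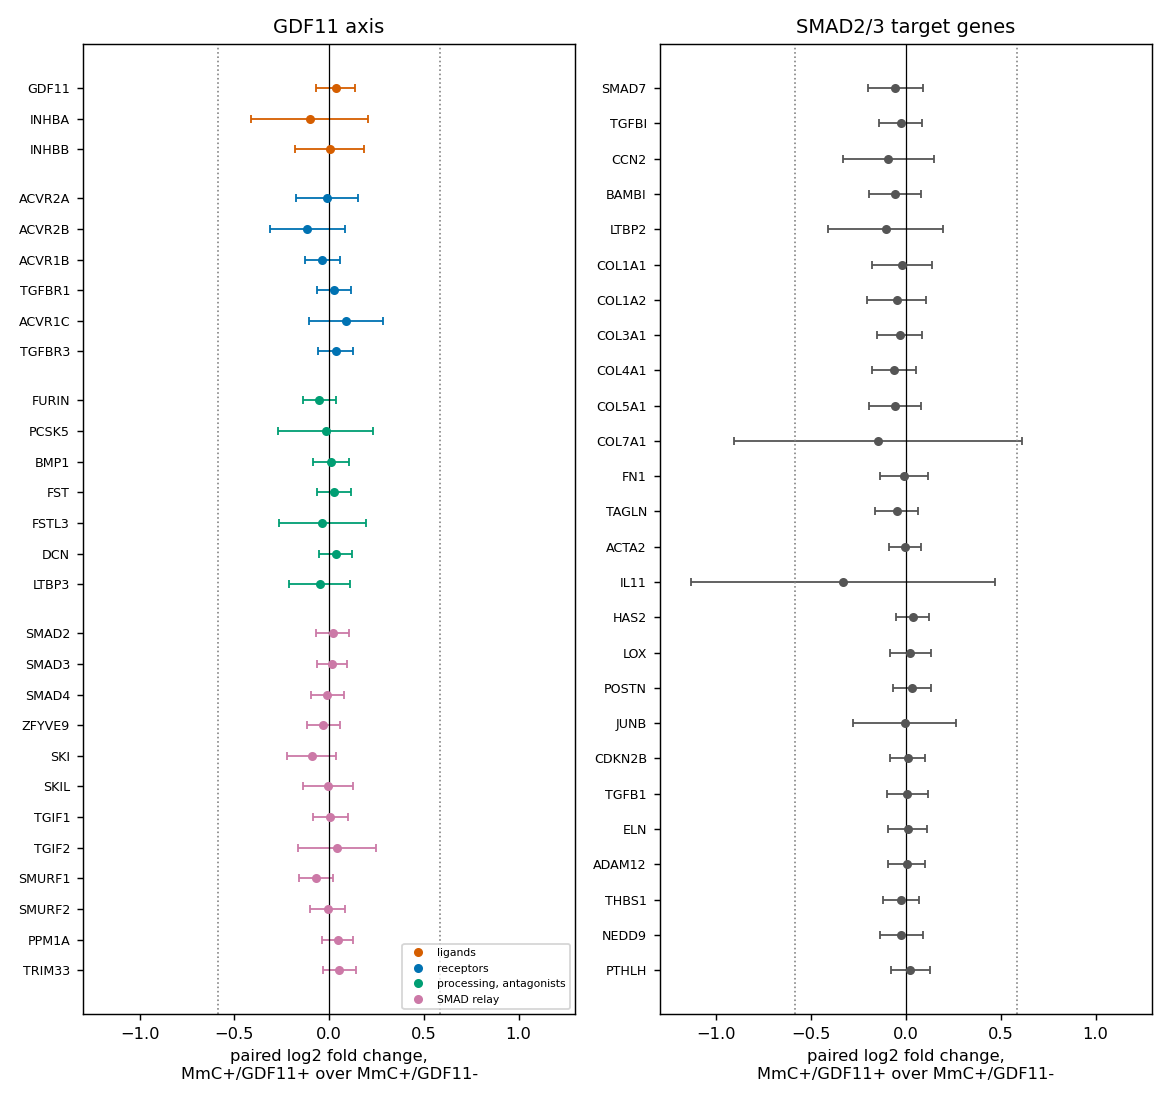
Paired log2 fold changes (MmC+/GDF11+ over MmC+/GDF11-, points) with 95% intervals (bars) for GDF11 axis genes with a mean of at least 1 CPM, left, and SMAD2/3 target genes, right; dotted lines mark a 1.5-fold change. Every interval on the left crosses 0, and on the right only IL11 and COL7A1 reach past the dotted lines.

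Targets of SMAD2/3 are the usual readout of GDF11 signalling. Of 30 tested, 0 had an unadjusted p under 0.05 in either fit, and 10 were higher and 20 lower. The median log2 fold change was -0.02, beside 0.00 for all genes. By pair, the median difference was 0.00, -0.21, 0.06 and 0.03 for pairs 1 to 4. SMAD7, the inhibitory SMAD, was at 14.0, 38.2, 30.4 and 25 CPM without and 14.2, 29.9, 33.0 and 24.6 CPM with GDF11. Replicate 1 was lowest in both groups, and the paired log2 fold change was -0.06 (-0.20 to 0.09). SMAD7 is named as a standard readout, after its values were seen.

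Abundant matrix targets had narrow intervals around 0. FN1 (fibronectin) had a paired log2 fold change of -0.01 (-0.14 to 0.12). THBS1 (thrombospondin 1) was at 9106, 4982, 5063 and 5181 CPM without and 8648, 4891, 4952 and 5183 CPM with GDF11. Replicate 1 stood above the other 3 in both groups, and the paired log2 fold change was -0.03 (-0.12 to 0.07). COL1A1 (type I collagen) was at -0.02 (-0.18 to 0.13), with replicate 1 at 5768 and 6034 CPM and the other 6 libraries between 1319 and 1689 CPM. Of 28 targets above 1 CPM, 26 had an interval within a 1.5-fold change. The exceptions were IL11, a cytokine, at -0.33 (-1.13 to 0.47), and COL7A1, the anchoring fibril collagen, at -0.15 (-0.91 to 0.61). In both, pair 2 differed most: IL11 was at 90.7 and 45.1 CPM, and COL7A1 at 59.6 and 31.8 CPM. NOX4, an oxidase, was the only target higher in 4 of 4 pairs, at a level of only 0.112 ± 0.0290 and 0.150 ± 0.0338 CPM (SD, n = 4). The targets of the related BMP branch had a median log2 fold change of 0.03 in 9 tested, with 0 at an unadjusted p under 0.05. Among them the inhibitors of differentiation ID2 and ID3 were at paired values of 0.05 (-0.03 to 0.14) and -0.11 (-0.23 to 0.02). HEY1, a Notch and BMP target, was at 0.36 (-0.06 to 0.78) and under 1 CPM.

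**Figure D3:**
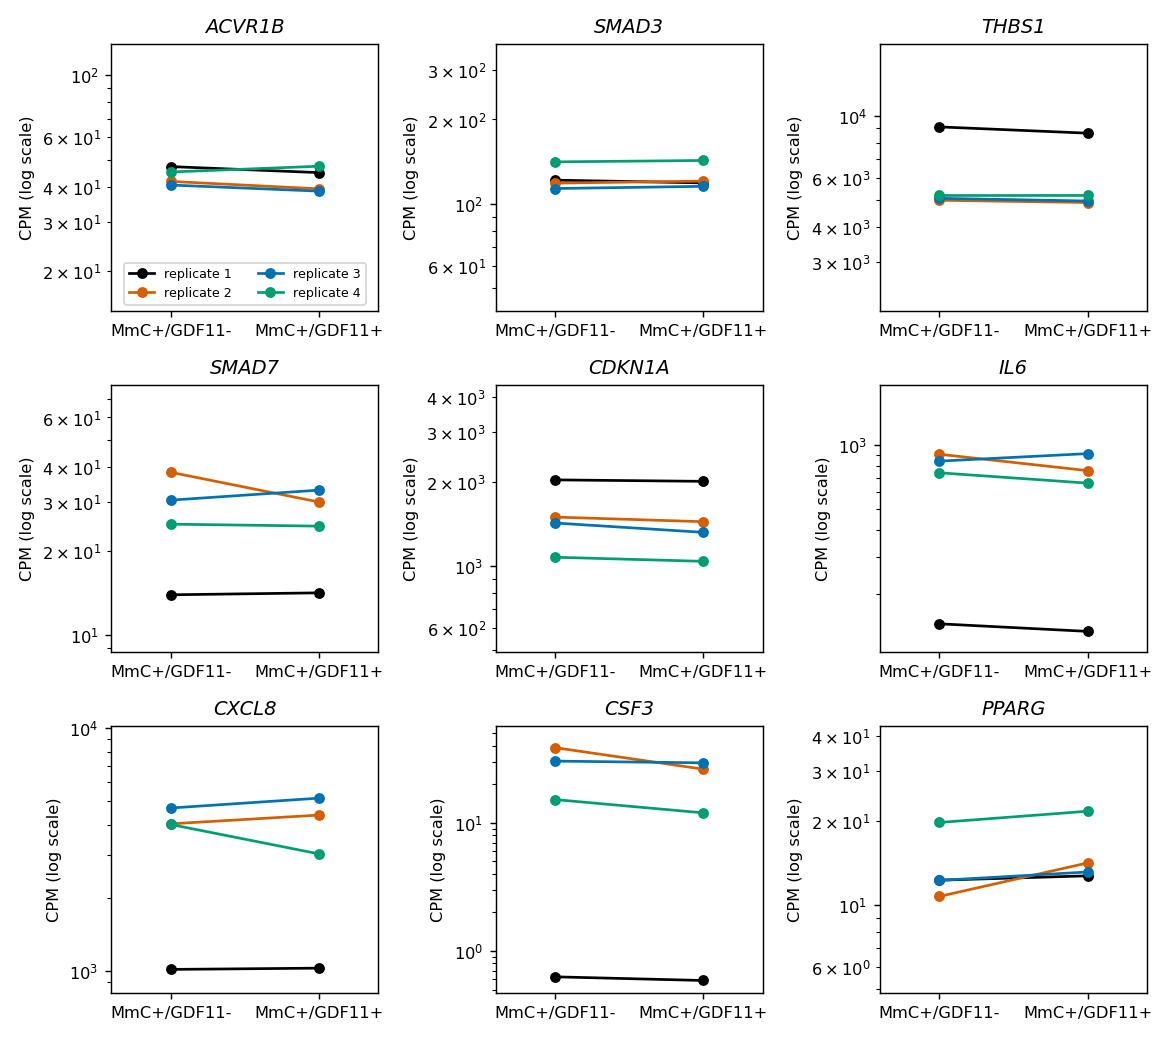
CPM on a log scale of 9 genes in each senescent library, with lines joining same-numbered libraries of MmC+/GDF11- and MmC+/GDF11+; the panels cover a receptor, a SMAD, 2 SMAD2/3 targets, CDKN1A, 3 SASP genes and PPARG. The lines run nearly flat, and the distance between replicate 1 and the others exceeds the difference within pairs in SMAD7, IL6, CXCL8 and CSF3.

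SASP genes were mostly somewhat lower with GDF11, by amounts that did not pass the test over all genes. Of 37 tested, 28 were lower and 9 higher, with a median log2 fold change of -0.09 unblocked and -0.07 paired. None had an unadjusted p under 0.05 without the block. In the paired fit 5 did, all lower: CSF3, IL36RN, MMP1, CXCL3 and CCL20. These 5 of 37 stand beside 1.12% of all genes that were lower at that threshold, and the list was chosen with results of these libraries known. When 1 pair was left out, the count was 5 without pair 1, 2 without pair 2, 14 without pair 3 (1 of them higher) and 2 without pair 4. The median difference by pair was -0.01, -0.22, 0.04 and -0.15 for pairs 1 to 4, so pair 3 was on the other side of 0.

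CSF3 (G-CSF, ENSG00000108342.13, hg38 chromosome 17, 40015361 to 40017813), a granulocyte growth factor, was at 0.628, 38.5, 30.3 and 15.2 CPM without and 0.588, 26.2, 29.3 and 11.9 CPM with GDF11. All 4 pairs were lower, but replicate 1 of both groups was far under the rest. The paired log2 fold change was -0.30 (-0.47 to -0.12; edgeR adjusted p = 0.999). Without the block it was -0.31 ± 0.87 (SE). IL36RN, an antagonist of IL-36 signalling, was at 6.27, 11.7, 14.2 and 6.13 CPM without and 5.91, 11.6, 10.6 and 4.77 CPM with GDF11. It too was lower in 4 of 4 pairs, at -0.22 (-0.37 to -0.06). The collagenase MMP1 was at -0.15 (-0.28 to -0.02) and lower in 2 of 4 pairs. The chemokines CXCL3, at -0.11 (-0.21 to -0.01), and CCL20, at -0.12, were lower in 3 of 4.

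The best known SASP factors had intervals that included 0. IL6, an inflammatory cytokine, was at 146, 905, 840.2 and 741 CPM without and 134, 759, 911 and 663 CPM with GDF11. Pair 3 was higher with GDF11 and the other 3 lower, and the paired log2 fold change was -0.10 (-0.21 to 0.01). CXCL8 (IL-8), a neutrophil attractant, was at 1011, 4028, 4681 and 4003 CPM without and 1023, 4377, 5141 and 3028 CPM with GDF11. It was higher in 3 of 4 pairs, at -0.03 (-0.22 to 0.17). CXCL5 and CXCL6, chemokines of the same receptor, were at -0.15 (-0.32 to 0.02) and -0.08 (-0.18 to 0.01). The stromelysin MMP10, at -0.36 (-0.82 to 0.09), was the one SASP gene of 37 whose interval reached past a 1.5-fold change.

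The size of these differences can be set beside that of MmC itself, from the same fit. Without GDF11, 33 of the 37 SASP genes were called higher in MmC+ than in MmC- cells (edgeR, adjusted p under 0.05), with a median log2 fold change of 5.23. MmC moved much of the transcriptome: 22.9% of all genes tested were called higher and 22.4% lower. Both comparisons use the MmC+/GDF11- libraries. Summed over the list, SASP genes made up 7228, 18465, 17714 and 15930.2 CPM in replicates 1 to 4 without GDF11 and 7184, 16757, 18797 and 14018 CPM with it. The 8 young libraries held 2375 to 3137 CPM, below every senescent library.

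**Figure D4:**
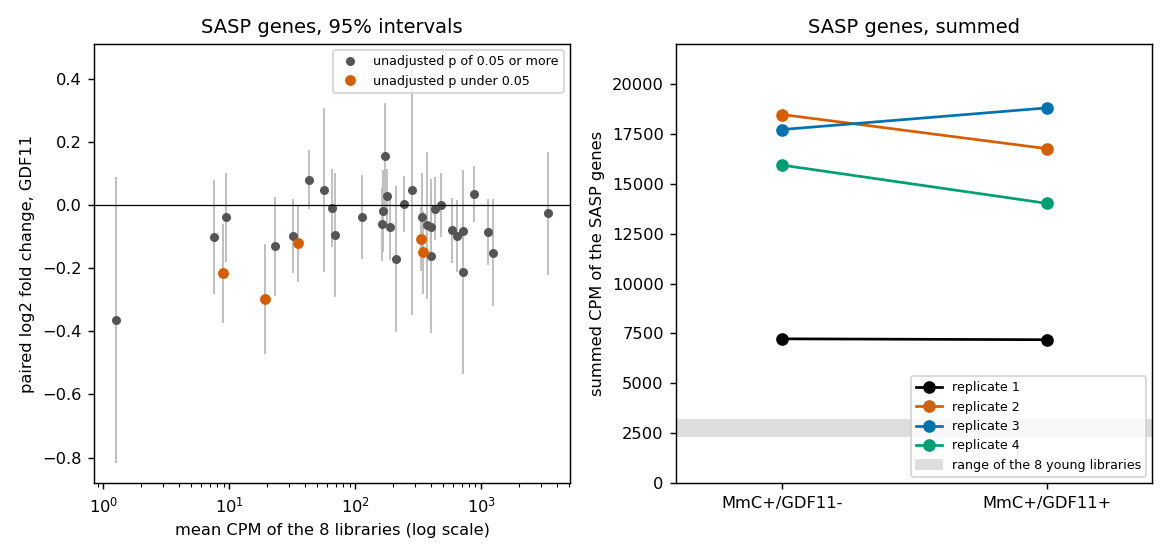
Left, paired log2 fold change with GDF11 (points) and 95% intervals (bars) of 37 SASP genes against their mean CPM on a log scale, with the 5 genes at an unadjusted p under 0.05 in orange. Right, summed CPM of the list in each senescent library, joined by replicate number, with the young range in grey; pair 1 lies at 7228 and 7184 CPM, the other 6 libraries lie at 14018 CPM or more, and all lie above the young range.

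Markers of growth arrest were at like levels with and without GDF11. CDKN1A, the p53 target that encodes p21, was at 2031, 1496, 1425 and 1075 CPM without and 2007, 1440.0, 1319 and 1039.7 CPM with GDF11. It was lower in 4 of 4 pairs by small amounts, at a paired log2 fold change of -0.05 (-0.14 to 0.04). Of the 27 p53 targets, 0 had an unadjusted p under 0.05 in either fit, and all 27 intervals lay within a 1.25-fold change. GDF15, a stress cytokine, was at -0.07 (-0.17 to 0.03). SUSD6 and AEN, further p53 targets, were at -0.09 (-0.19 to 0.01) and -0.05 (-0.13 to 0.03). Of 37 cell cycle genes, 29 were higher and 8 lower, with a median of 0.02 and 0 at an unadjusted p under 0.05. Their median difference by pair was 0.00, 0.01, 0.16 and -0.07 for pairs 1 to 4, so pair 4 was on the other side of 0. MKI67, the proliferation marker Ki-67, was at 16.4, 37.4, 39.6 and 47.9 CPM without and 13.7, 40.9, 49.8 and 48.0 CPM with GDF11. It was at 0.07 (-0.11 to 0.26) and lay below the young range of 77.5 to 163 CPM in all 8 libraries. The mitotic kinases and motors BUB1 and CENPE were at 0.11 (-0.02 to 0.24) and 0.13 (-0.01 to 0.27). The replication genes PCNA and RRM2 were at 0.04 (-0.04 to 0.12) and 0.00 (-0.12 to 0.13). After MmC alone, 28 of the 37 cell cycle genes were called lower and 21 of the 27 p53 targets higher (edgeR), beside 22.4% lower and 22.9% higher among all genes.

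GDF11 is known from other work for effects on fat and bone differentiation, vessel growth and Akt signalling. PPARG (ENSG00000132170.24, hg38 chromosome 3, 12287368 to 12434356), the master regulator of adipocytes, was at 12.3, 10.7, 12.2 and 19.7 CPM without and 12.7, 14.1, 13.1 and 21.6 CPM with GDF11. It was higher in 4 of 4 pairs, though the groups overlapped. The paired log2 fold change was 0.17 (0.05 to 0.30; edgeR adjusted p = 0.999). It was the only one of 15 adipocyte genes at an unadjusted p under 0.05. The lipid droplet genes PLIN1 and PLIN2 were at 0.32 (-0.24 to 0.87) and 0.05 (-0.04 to 0.14), and the desaturase SCD at 0.03 (-0.07 to 0.13). Of 9 osteoblast genes tested, 0 had an unadjusted p under 0.05; among them were SPARC at 0.03 (-0.06 to 0.11), PHEX at -0.08 (-0.38 to 0.23) and IBSP, below 1 CPM, at -0.41 (-1.12 to 0.29).

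Of 19 angiogenic genes, 15 were lower and 4 higher, with a median of -0.05 and 0 at an unadjusted p under 0.05 in either fit. By pair, the median difference was 0.00, -0.13, 0.03 and 0.03 for pairs 1 to 4. The growth factor FGF2 was at -0.06 (-0.19 to 0.06) and the hypoxia factor EPAS1 at -0.01 (-0.10 to 0.08). ANGPT2 and KDR, an angiopoietin and a VEGF receptor, were under 1 CPM at 0.80 (-0.18 to 1.78) and -0.37 (-1.06 to 0.32). In the PI3K/Akt list of 16, AKT1 was at -0.02 (-0.10 to 0.06), IRS1 at -0.05 (-0.18 to 0.08) and RPTOR, a part of mTORC1, at -0.08 (-0.17 to 0.00). TSC1, a brake on mTORC1, was the only gene of the 22 lists whose groups did not overlap (1 of 272, or 0.368%, beside 0.503% of all genes). It was at 39.8, 37.2, 36.7 and 36.8 CPM without and 34.4, 36.4, 35.7 and 35.5 CPM with GDF11, a paired log2 fold change of -0.08 (-0.17 to 0.02).

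Contractile genes, known responders to TGF-β, had a median of -0.03 in 11 tested. TPM1 and TPM2 (tropomyosins) were at -0.09 (-0.23 to 0.04) and -0.04 (-0.15 to 0.06), the actin-binding CALD1 at 0.02 (-0.07 to 0.11) and the matricellular CCN1 at -0.06 (-0.18 to 0.06). Interferon genes varied more between pairs. Of 21 tested, 17 were higher and 4 lower with GDF11 without the block, with a median log2 fold change of 0.05. The median difference of the list was -0.13, 0.13, -0.17 and 0.30 in pairs 1 to 4. Only 8 of 19 above 1 CPM had an interval within a 1.25-fold change. The antiviral gene IFI6 was at -0.12 (-0.38 to 0.14). IRF7, a factor that induces interferon, was at 0.17 (-0.37 to 0.71), and 98.7% of its sequence words also lie on alternate contigs. IFI27 was at 22.8, 19.1, 26.9 and 30.6 CPM without and 6.30, 4.55, 27.2 and 26.1 CPM with GDF11. Pairs 1 and 2 were far lower and pairs 3 and 4 were not, and 100.0% of its sequence words also lie on alternate contigs of the genome build.

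**Figure D5:**
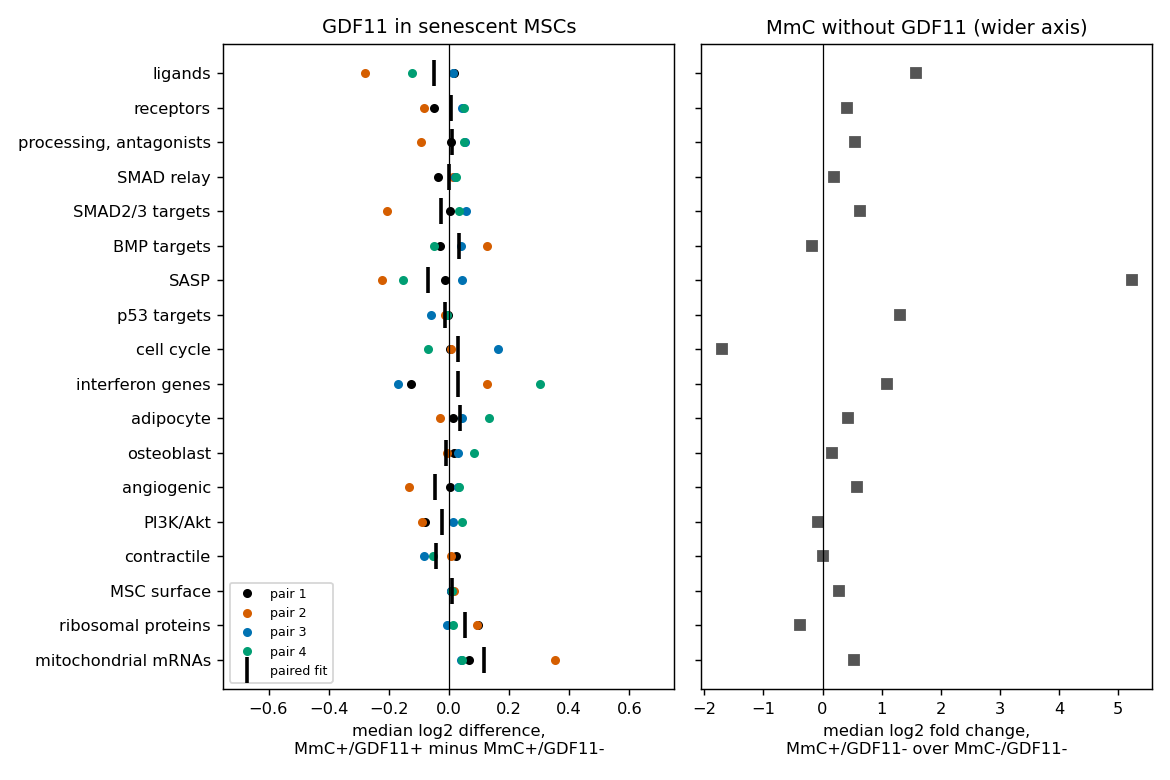
Left, the median log2 difference of each gene list with GDF11, by pair (points) and in the paired fit (bars); right, on a wider axis, the median log2 fold change of the same lists after MmC without GDF11. The SASP list is at -0.07 in the paired fit and 5.23 after MmC, and the points of different pairs lie on both sides of 0 for most lists.

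Over the 22 lists together, 272 of 289 genes were tested. Without the block 0 had an unadjusted p under 0.05. In the paired fit 6 did (2.21%, beside 2.74% of all genes). Of 245 genes above 1 CPM, 237 had a paired interval within a 1.5-fold change. The MSC surface markers were abundant in both groups, with a summed level of 6197 to 7015 CPM without and 6174 to 7088 CPM with GDF11. ITGB1 and CD44 were at paired values of 0.01 (-0.08 to 0.10) and 0.01 (-0.08 to 0.09), and NT5E and ENG at 0.03 and -0.02. Markers of other cell types summed to 54.4 to 111 CPM for the endothelial list and 9.70 to 19 CPM for the blood and immune list. Nearly all of the endothelial sum came from TEK and PECAM1, at -0.06 (-0.14 to 0.03) and -0.01 (-0.13 to 0.10), and CDH5 stayed below 1 CPM. The smooth muscle and pericyte list summed to 25.1 to 34.7 CPM, nearly all of it from CSPG4, at -0.03 (-0.13 to 0.08), and RGS5, at 0.11 (-0.11 to 0.33); MYH11 was at 0 in all 8 libraries. The epithelial list summed to 12.5 to 20.7 CPM.

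Only 1 protein-coding gene with a mean log2 CPM of at least 1 had an unadjusted p under 0.05 without the block and the same direction in all 4 pairs. Genes below that level could be further apart, such as GGNBP2 at a log2 fold change of 4.41 and VAMP7 at 3.42, both named after their values were seen. GGNBP2 was at 9.77 CPM in replicate 3 with GDF11 and between 0.105 and 0.214 CPM in the other 7 libraries. VAMP7 was at 4.81 and 5.89 CPM in replicates 1 and 2 with GDF11 and under 1 CPM in the other 6. Of their sequence words, 99.7% and 100.0% are also found elsewhere in the build. PUF60 (ENSG00000179950.14, hg38 chromosome 8, 143816344 to 143830709), a splicing factor, was at 14.4, 9.47, 17.0 and 14.3 CPM without and 4.50, 8.36, 5.77 and 10.1 CPM with GDF11. All 4 pairs were lower, and the groups overlapped through replicate 4 with GDF11 and replicate 2 without. The log2 fold change was -0.94 ± 0.41 (SE; edgeR adjusted p = 0.999999). In the paired fit it was -0.96 (-2.06 to 0.14). Of its sequence words of 31 bases, 87.6% also occur on alternate contigs, so reads can be assigned to more than 1 place.

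Among protein-coding genes with a mean log2 CPM of at least 1, the 5 higher and 5 lower with the lowest paired p were mostly at low levels; some genes below that limit had a lower p and are not named. ACACA, the acetyl-CoA carboxylase of fatty acid synthesis, was at 1.95, 2.44, 3.29 and 2.85 CPM without and 1.07, 1.53, 2.79 and 1.70 CPM with GDF11. Its paired log2 fold change was -0.60 (-0.84 to -0.36; edgeR adjusted p = 0.999), and 99.4% of its words also lie on alternate contigs. ESM1, an endothelial proteoglycan, was at 22.3, 95.8, 85.6 and 40.3 CPM without and 21.0, 69.7, 84.0 and 32.7 CPM with GDF11. It was lower in 4 of 4 pairs, at -0.22 (-0.36 to -0.08), and like CSF3 it was lowest in replicate 1. PHKA1, a phosphorylase kinase subunit, was at -0.23 (-0.38 to -0.09), and NBPF26, of a repeated gene family, at -0.20 (-0.32 to -0.08). The higher genes were ATP6V0C, a proton pump subunit, at 0.25 (0.13 to 0.38), RPL17, a ribosomal protein, at 0.15 (0.05 to 0.25), and PWP2, a ribosome assembly factor, at 0.31 (0.13 to 0.50). TUBGCP5, of the γ-tubulin ring, was at 0.44 (0.18 to 0.70) and IFNGR2, an interferon-γ receptor chain, at 0.38 (0.16 to 0.61). At least 50% of the sequence words of ACACA, TUBGCP5, IFNGR2, PWP2 and NBPF26 are also found elsewhere, and 76.3% of ATP6V0C is shared with a gene on the same strand.

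Genes with such repeated sequence were 6.72% of all tested, 34.4% of the 96 and 17.6% of the 524 genes at an unadjusted p under 0.05. Genes under 1 CPM were 31% of all tested, 90.6% of the 96 and 38.2% of the 524. The part of sequence sharing and low counts in these differences was not tested.

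Whether GDF11 acted differently in senescent and young MSCs was tested as an interaction. No gene passed (edgeR, lowest adjusted p 0.99994), and 172 (0.9%) had an unadjusted p under 0.05. Among the named genes these included PUF60, at -1.33 ± 0.57 (SE), KDR, at -1.74, and IFI27, at -2.05 on the log2 scale. For the ligands, receptors, proteases, SMADs, SMAD2/3 targets and SASP genes there were 0 at that threshold.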

How the data were processed

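Poly(A)-enriched RNA was sequenced as paired-end reads. The authors mapped them to GRCh38/hg38 with HISAT2 2.2.1 and deposited raw read counts per gene from featureCounts 2.0.1 (tool versions per the submitters' processing notes); strand and multi-mapping settings are not given in the sources used here. Of 60649 genes, 19103 passed edgeR's filterByExpr (at least 10 counts) and were tested. Counts were scaled by TMM and tested with edgeR 4.0.16 (quasi-likelihood, 1 mean per group, 16 libraries, Benjamini-Hochberg; R 4.3.3), with limma 3.58.1 and DESeq2 1.42.0 as alternatives; fold changes are log2 with 95% intervals from the same fit. The code was tested on simulated data. Same-numbered libraries were taken as pairs because their deviations from the group means correlated in all 4 pairs (r 0.448 to 0.818; other numbers -0.614 to 0.330). Pair 2 was the loosest, at r 0.448. By squared difference relative to counting noise, MmC+/GDF11+ replicate 2 lay nearer to MmC+/GDF11- replicate 3 than to its partner. The ratio was 8.45 against 15.1, over genes averaging at least 500 counts. Whether a number marks a shared culture or day is not stated. Gene symbols and exon lengths come from the GENCODE annotation of the same build. Sequence words of 31 bases were counted over the genome and its 261 alternate contigs. Members and lists were chosen with earlier results of these data known. Genes were named by rule: GDF11 axis genes, the largest differences (unadjusted p under 0.05) with the same sign in all pairs and the lowest paired p-values, both among protein-coding genes whose average log2 CPM was 1 or more, and the 2 most abundant members and the 2 with the lowest unblocked p of each list. Some named members are not reported here.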

Additional observations from a re-analysis of the deposited data

Results flagged for a closer look

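In 5 of 92 groups of 4 libraries tested, 1 library lay far from the other 3; chance gives such a gap in about 1 of 20 groups. In MmC+/GDF11-, SMURF2 was highest in replicate 1 at 254 CPM (next 187), TGIF2 was highest in replicate 1 at 2.97 CPM (next 1.71), and TGIF1 was lowest in replicate 1 at 53.6 CPM (next 84.1). In MmC+/GDF11+, BMP1 was highest in replicate 1 at 216 CPM (next 134) and TGFBR3 was highest in replicate 4 at 231 CPM (next 139). In each case the same-numbered library of the other group was the extreme one too: SMURF2 at 247 CPM, TGIF2 at 2.99 CPM, TGIF1 at 49.1 CPM, BMP1 at 208 CPM and TGFBR3 at 215 CPM.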

How the results depend on the processing

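In every alternative to the unblocked test that was run, 0 genes were called for GDF11. The 96 genes at an unadjusted p under 0.05 became 575 with no filter, 33 with at least 10 counts in every library, 524 with the replicate block, 246 with the block within each MmC arm, 817 with the block as a random effect in limma-voom and 62 in DESeq2. Leaving out libraries or pairs gave 87 to 141. The paired fit gave 91 without the block and 514 to 794 when a pair was left out. It called 0 to 1 genes, the 1 being ENSG00000275895 without pair 4 (log2 fold change 1.21, edgeR adjusted p = 6.77e-05), chosen after its value was seen. The annotation types ENSG00000275895 as an artifact, and 98.3% of its sequence words are also found elsewhere in the build. SASP genes at an unadjusted paired p under 0.05 numbered 2 to 14 without a pair and 0 without the block. Ribosomal protein genes numbered 2 to 15 and 0, and mitochondrial mRNAs 1 to 8 and 0, or 3 without genes of repeated sequence (an alternative added after seeing the data). The interaction gave 645 genes with the block within arms. The share of variation of GDF11 was 1.73% to 5.41% with a pair left out. Without the block, leaving out libraries moved CSF3 from -0.71 to 0.15 and ESM1 from -0.57 to 0.070; both changed sign without MmC+/GDF11- replicate 2 or MmC+/GDF11+ replicate 1. Of 2329 values of named genes, 2159 moved by less than 1 SD of the 4 pair differences, and of 549 list medians 490. Among the 2329, 253 had the opposite sign to the main fit. RLE scaling shifted the median of all genes by 0.004. Without the block 46.6% of genes above 1 CPM had an interval within a 1.25-fold change, which limits what 4 libraries a group can show.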

Other observations

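Mitochondrial and ribosomal transcripts, grouped after their values were seen, were slightly higher with GDF11. Of 13 mitochondrial mRNAs, 12 were higher, with a median log2 fold change of 0.12, and 7 were higher in all 4 pairs, as were 5.19% of all genes. In the paired edgeR fit 6 had an unadjusted p under 0.05, as did 2.74% of all genes, and 0 an adjusted one. MT-CYB, the cytochrome b of complex III, was at 2119.7, 1744, 2157 and 1992 CPM without and 2222, 2336, 2269 and 2058 CPM with GDF11. Pair 2 held the widest gap, and the paired log2 fold change was 0.16 (0.03 to 0.28). MT-ND4, of complex I, was at 0.15 (0.03 to 0.26). MT-ND6, the one mitochondrial mRNA of the other strand, was at -0.03 (-0.16 to 0.10). The median by pair was 0.07, 0.35, 0.04 and 0.04. Without pair 2, 1 of 13 had an unadjusted p under 0.05 in the paired edgeR fit, and it was lower with GDF11.

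Of 81 ribosomal protein genes, 72 were higher, with a median of 0.05, and 18 were higher in all 4 pairs (5.19% of all genes). In the paired fit 8 had an unadjusted p under 0.05, all of them higher (2.74% of all genes in either direction). In RPL14 alone the groups did not overlap (0.503% of all genes), with a paired log2 fold change of 0.10 (0.01 to 0.19). The median by pair was 0.10, 0.09, -0.01 and 0.01, larger in pairs 1 and 2 than in pairs 3 and 4. Without pair 1 the count was 2, of which 1 was higher. Without pair 2 it was 2, with 2 higher, and without pair 4 it was 15, with 14 higher. For comparison, 43 of the 81 were called lower and 1 higher after MmC alone (edgeR, adjusted p under 0.05), beside 22.4% and 22.9% of all genes. Of the 13 mitochondrial mRNAs, 6 were called higher and 0 lower there. That comparison shares the MmC+/GDF11- libraries. With GDF11 in young MSCs, the median log2 fold change was 0.13 for the ribosomal and -0.26 for the mitochondrial list. Mitochondrial genes held 1.58% of counts in MmC-/GDF11+ replicate 2, far under the 2.77% to 3.04% of the other MmC-/GDF11+ libraries. In MmC-/GDF11- they held 2.81% to 3.11%.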
